A study of Mus musculus with 8 samples.

Results

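Unknown_2 is the smallest of the 18 clusters that the authors annotated in single nuclei of the mouse striatum, and it carries no cell type name. Its members were taken as every nucleus with that name in the deposited table of nuclei, which gave 57 of 55672 annotated nuclei, 0.102%. The exact binomial 95% interval, 0.0776 to 0.133, covers counting error only and not the spread between mice. The annotated nuclei were themselves drawn from 89339 barcodes, the tags that mark a droplet. The striatum was taken from 32 mice at 12 weeks of age, and nuclear RNA and open chromatin (ATAC) were read from the same nuclei with the 10x Genomics Multiome assay. The mice belonged to 8 inbred strains, with no treatment named in the labels: the wild-derived CAST/EiJ, WSB/EiJ and PWK/PhJ, and the laboratory strains NZO/HlLtJ, C57BL/6, A/J, 129S1/SvImJ and NOD/ShiLtJ. Each of 4 batches pooled the nuclei of 1 mouse of every strain, 4 males and 4 females a batch, so that a batch and a strain together name a mouse. Frozen tissue was used, and the nuclei of the 8 mice were mixed before they were loaded.

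By its RNA the cluster was choroid plexus-like. The choroid plexus is a fold of secretory epithelium that hangs in the brain ventricles, the lateral ones of which border the striatum, and makes cerebrospinal fluid. Its cells are known for transthyretin (Ttr), the carrier of thyroid hormone and retinol in that fluid, for ion and water transporters on both faces, and for tight junctions that close the space between blood and fluid. It derives from the same neuroepithelium as the ependyma, the ciliated lining of the ventricles, and is not a part of the striatum itself.

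The gene that had been given as a marker of the cluster, Ppp1r1b, did not set it apart. Ppp1r1b encodes DARPP-32, the dopamine-regulated phosphatase inhibitor of striatal projection neurons. Its level in Unknown_2 was 183 CPM (counts of the gene divided by all counts of the nuclei of the cluster and scaled to 1e+06, not scaled for gene length; exact Poisson 95% interval 129 to 252, 37 counts). The level in Drd1+ neurons, which stood next among the 18 clusters, was 160 CPM and lay inside that interval. A count of Ppp1r1b was found in 43.9% of the 57 nuclei and in 62.2% of Drd1+ neurons, at median depths of 3277 and 6505 unique molecular identifiers (UMIs) a nucleus. With nuclei thinned to 1000 UMIs, which left out 1 nucleus of the cluster, the shares were 16.1% and 15.3%. Other clusters were close: 14.5% in Drd2+ neurons, and 11.4% to 13.3% in Ependyma, Oligodendrocyte, Astrocyte, Macrophage and Fibroblast. Within Unknown_2 the level was 116 CPM in the nuclei of the CAST/EiJ mouse of batch 1 and 235 CPM in those of the 129S1/SvImJ mouse of batch 4. It was 301 CPM in the nuclei of the other mice. The 10 projection neuron genes on the marker lists, Ppp1r1b included, summed to 2202 CPM in Unknown_2, against 8242 CPM over all other nuclei.

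All 6 genes of the choroid plexus list were higher in Unknown_2 than in any other cluster. Of all 28488 genes with a UMI, 9.87% had their highest level in this cluster. No test is given for genes between clusters, since the clustering was made on the same counts. The list summed to 37121 CPM, against 289 CPM in Macrophage, the next cluster. Besides the single-gene entry Ppp1r1b, it was the only one of 38 marker lists whose summed level was highest in Unknown_2. All 5 cholinergic interneuron genes and all 4 proliferation genes had 0 UMIs in the 57 nuclei, against 50.2% of all genes with a UMI elsewhere.

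Ttr reached 35645 CPM in Unknown_2 and 78.4 CPM over all other nuclei, a pooled ratio of 449 with 1 CPM added to both. The median of the 4 within-batch ratios was 8.44 on the log2 scale, and without 1 batch it ran from 7.45 to 9.43. Kl, which encodes klotho, a membrane protein that acts with growth factor receptors, stood at 499 CPM against 1.23 CPM, and at 35.5 CPM in Fibroblast. Otx2, a homeodomain factor of forebrain and choroid plexus development, stood at 321 CPM against 0.332 CPM. Its within-batch median log2 ratio fell to 3.27 after thinning and was 6.26 in batches 2 and 3 alone. The latter rests on few UMIs: 2 in an NZO/HlLtJ and 1 in a WSB/EiJ nucleus of batch 2, and 1 in a 129S1/SvImJ nucleus of batch 3. Folr1, the folate receptor that carries folate into cerebrospinal fluid, stood at 197 CPM against 0.727 CPM. Ependyma also held it, at 48.4 CPM and in 13.9% of nuclei, against 38.6% in Unknown_2. After thinning these shares were 3.83% and 10.7%. The within-batch median log2 ratio of Folr1, 6.02, fell to 2.30 after thinning and was 2.54 in batches 2 and 3 alone. The water channel Aqp1 was the thinnest of the list, with 12 UMIs in 12.3% of the nuclei (59.2 CPM, interval 30.6 to 103). Many of these lay outside the 2 mice that gave most nuclei. In batch 2 an NZO/HlLtJ nucleus held 3 and a NOD/ShiLtJ nucleus with no Ttr held 2, and a 129S1/SvImJ nucleus of batch 3 held 2. Its within-batch median log2 ratio of 5.92 turned to -0.28 after thinning to 1000 UMIs. Clic6, an intracellular chloride channel protein, stood at 400 CPM against 19.6 CPM, and projection neurons also held it (31.6 CPM in Drd2+ neurons). Its within-batch median log2 ratio was 3.62, but -0.97 in batches 2 and 3 alone.

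**Figure D1:**
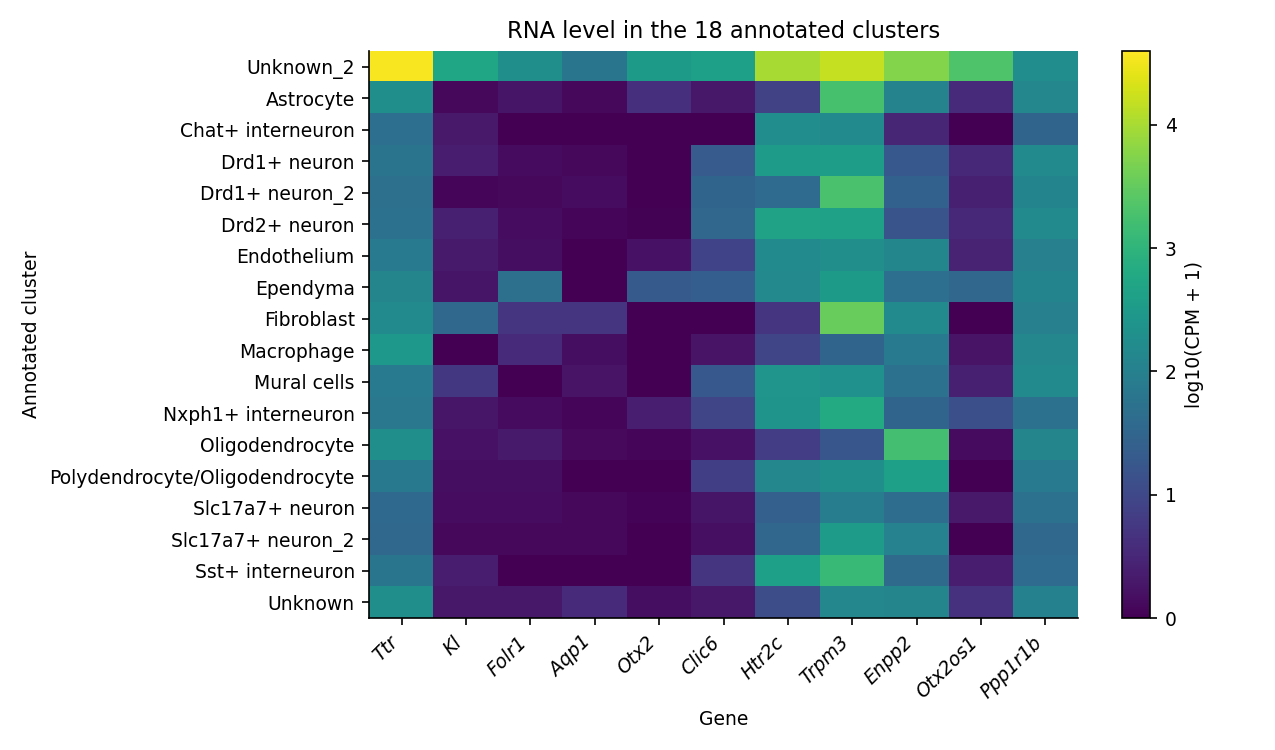
Level of 11 genes, as log10 of CPM with 1 added (colour), in the 18 annotated clusters (rows). The first 10 genes are brightest in the top row, Unknown_2, while Ppp1r1b has nearly the same colour there as in Drd1+ neurons.

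Sequence upstream of 3 genes is shown because Otx2 is the DNA-binding member of the list and because the other 2 were among those with the highest ratio to other nuclei. Each is the 250 bases before a RefSeq transcript start in GRCm38.p6, read 5′ to 3′ on the strand of the gene, and each overlaps a peak in the deposited index of accessible regions, which was not made from this cluster alone. Capitals mark TAATCC or its reverse complement GGATTA, the core letters bound by homeodomain proteins of the OTX kind.
Otx2, chr14:48665110-48665359, minus strand: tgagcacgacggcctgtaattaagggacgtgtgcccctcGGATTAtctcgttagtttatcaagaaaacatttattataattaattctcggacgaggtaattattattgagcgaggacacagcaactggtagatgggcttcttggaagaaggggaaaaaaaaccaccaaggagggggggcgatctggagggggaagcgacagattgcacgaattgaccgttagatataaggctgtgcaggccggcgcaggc
Kl, chr5:150952357-150952606, plus strand: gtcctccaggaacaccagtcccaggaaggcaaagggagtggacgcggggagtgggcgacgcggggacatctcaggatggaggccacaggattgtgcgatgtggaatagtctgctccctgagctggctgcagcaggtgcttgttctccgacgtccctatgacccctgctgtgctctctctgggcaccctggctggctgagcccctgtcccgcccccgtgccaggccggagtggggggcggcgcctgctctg
Tmem72, chr6:116716759-116717008, minus strand: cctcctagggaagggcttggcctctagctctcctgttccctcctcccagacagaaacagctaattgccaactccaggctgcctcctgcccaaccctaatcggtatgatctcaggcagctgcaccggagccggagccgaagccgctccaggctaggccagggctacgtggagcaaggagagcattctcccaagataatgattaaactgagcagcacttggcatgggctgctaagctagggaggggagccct
The motif, searched on both strands, occurred in the printed Otx2 window and in neither of the other 2. The table holds 4 windows for Otx2, and the other 3 held neither the motif nor a peak. Among the 20 genes with the highest ratio to other nuclei, 16 had a promoter in the RefSeq table, and 3 of these held the motif (18.8%), against 7.21% of all 27025 genes there. These genes have more windows each, and counted by window the share was 9.68% (3 of 31), against 6.25% of all windows. A match is a description of letters in this window.

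Genes were also ranked by their ratio over all other nuclei. The rule set for naming genes required a UMI in at least 8 mice, and since nuclei of the cluster came from 10 mice, it left 376 genes. The 20 it named ran from Notch2, a receptor of cell-fate signalling (558 CPM against 25.9, median of the within-batch ratios 12.0, or 3.58 on the log2 scale, and 2.67 to 4.49 without 1 batch), to Zbtb20 at 2.79. Fxyd1, a regulator of the sodium pump, and Slc4a10, a bicarbonate transporter, followed Notch2. Of these 20 genes, 8 were highest in Unknown_2 of the 18 clusters, beside 20.4% of the 6164 genes with at least 20 CPM and a UMI in at least 10% of its nuclei. Since the 20 were picked for a high ratio, and from the 376 genes, the count is a description. Against the highest other cluster, the same requirement named Slc4a10, Nr6a1, Arl6ip1, AC149090.1, Exoc4, Usp32, Srsf1, Notch2, Ogdh and Kcnq1ot1, with ratios of 1.59 to 2.38.

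Without the requirement on mice, 169 of the 6164 genes were at least 10-fold higher in Unknown_2 than over other nuclei by the median of the within-batch ratios. With counts pooled over batches, where the CAST/EiJ mouse of batch 1 and the 129S1/SvImJ mouse of batch 4 hold most nuclei, the number was 336 (5.45%), of which 197 had their highest level there. It was 72 after thinning and 66 from batches 2 and 3 alone. The top 20 by pooled ratio, ranked after values were seen, had pooled ratios of 125 to 628 and within-batch medians of 10.4 or more. All 20 had UMIs in both mice that gave most nuclei. This follows in large part from the ranking, since the pooled counts come mostly from these mice. Otx2os1, a long noncoding RNA next to Otx2, led the 20 genes with 2148 CPM against 2.42. Its within-batch median log2 ratio was 9.15, and 4.11 in batches 2 and 3 alone, where 61 of its 74 UMIs in batch 2 lay in 1 WSB/EiJ nucleus and batch 3 had none. Whether counting used strand is not given in the sources used here. Gmnc, a regulator of the multiciliated cell programme, followed with 889 CPM against 0.429, then Ttr, then Col8a1, a short-chain collagen, with 1022 CPM against 1.49. Tmem72, Prlr (the prolactin receptor), Sostdc1 (a secreted inhibitor of BMP and Wnt signals), Otx2 and Kl came next.

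The 5 genes with most counts in the cluster, with no scaling for gene length, were Ttr, Malat1, Trpm3, Htr2c and mt-Co3. Malat1, a nuclear noncoding RNA, was low here: 21313 CPM, rank 16 of 18 clusters. Among genes with at least 100 CPM elsewhere, the lowest ratios belonged to Kctd8, St18, Pex5l, D430041D05Rik and Il1rapl2, with 1 to 5 UMIs each. Their within-batch median log2 ratios of -8.75 to -7.74 depend on batches with no UMI and are no bound: by pooled counts they were -5.61 to -3.38, and by the mean over mice that of Il1rapl2 was -1.64. Pex5l and St18 are highest in oligodendrocytes, and each had 1 UMI in the 57 nuclei. Across 16361 genes the profile was nearest to Ependyma (Pearson r = 0.77, Spearman rho = 0.80) and then to Astrocyte (r = 0.76). Single nuclei gave another order: with 100 CPM added, 47 of the 57 nuclei were nearest to Fibroblast, 43 of them among the 45 of the 2 main mice, and none to Ependyma. All these values are across genes, which are not independent replicates, and the clusters share libraries. The 8 fibroblast genes on the marker lists were nearly absent from the nuclei of the 2 main mice, with 0 to 1 UMIs a nucleus. They summed to 26.9 CPM in the CAST/EiJ nuclei and 39.2 CPM in the 129S1/SvImJ nuclei of batch 4, against 4369 CPM in Fibroblast.

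Genes that textbook knowledge links to the epithelium were then grouped by role, after values had been seen. Counts of genes highest in Unknown_2 in these groups stand beside 20.4% of the 6164 genes with at least 20 CPM and 9.87% of all 28488 genes, and since the groups were chosen with values known, they are a description. Of 12 genes of ion and water transport, 9 were highest in Unknown_2. Slc4a5, the sodium bicarbonate cotransporter of the apical face, stood at 272 CPM against 0.471 elsewhere, and the potassium channel subunit Kcne2 at 202 CPM against 0.197. The bicarbonate transporter Slc4a10 stood at 2957 CPM against 266, but its within-batch median log2 ratio of 2.73 was 1.85 without batch 1 or without batch 4, and 0.97 in batches 2 and 3 alone. Stk39, a kinase that acts on chloride cotransporters, stood at 2903 CPM against 106. Among the exceptions, Slc12a2, a sodium-potassium-chloride cotransporter, was higher in oligodendrocytes (754 against 681 CPM), and Atp1b1 ranked 3 of the 18 clusters.

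Of 8 receptor and uptake genes, 6 were highest in the cluster. Htr2c, the serotonin 2C receptor, reached 9815 CPM, while Drd2+ neurons, the next cluster, had 450 CPM. The cation channel Trpm3 reached 15813 CPM, against 3380 CPM in Fibroblast. Both rested on the 2 main mice: the median of the within-batch log2 ratios to other nuclei was 3.79 for Htr2c and 3.55 for Trpm3, fell to 2.45 and 1.88 without batch 1 or without batch 4, and was 1.11 and 1.14 in batches 2 and 3 alone. Prlr stood at 691 CPM and the sulfate transporter Slc13a4 at 257 CPM. Lrp2, the large endocytic receptor megalin, had 1 UMI.

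Among 8 secreted proteins, Ttr, Enpp2, Sostdc1 and Ecrg4 had their highest level in Unknown_2. Enpp2 encodes autotaxin, which makes lysophosphatidic acid, and stood at 5579 CPM against 1674 CPM in oligodendrocytes. Its within-batch median log2 ratio to other nuclei, 4.85, fell to 3.84 after thinning and was 3.94 in batches 2 and 3 alone. Igf2 and Igfbp2, a growth factor and its binding protein, were higher in Fibroblast, at 508 and 548 CPM against 173 and 301 in Unknown_2. Clu and Cst3 were highest in Astrocyte and Macrophage.

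Of 8 transcription genes, Otx2, Lmx1a, Msx1, Gmnc and Rfx3 were highest in the cluster. Lmx1a, a roof plate factor, stood at 217 CPM against 0.236 over all other nuclei. Foxj1, the master factor of motile cilia, was lower than in Ependyma, at 74.1 against 161 CPM. Mcidas had 0 UMIs.

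Of 8 genes of the motile cilium, 2 were highest in Unknown_2 and 6 in Ependyma. The 2 were Drc7 and Fhad1, at 98.7 against 88.4 CPM and 202 against 153 CPM. At these levels counting error leaves their order between the 2 clusters unresolved. A count of 2 of 8 is also near the 20.4% of the 6164 genes with at least 20 CPM. The axonemal dynein Dnah12 had 0 UMIs in the 57 nuclei and stood at 962 CPM in Ependyma, while Spag17 had 1 UMI and stood at 510 CPM in Ependyma. Spag16 and Cfap43 were nearer, at 795 against 1228 CPM and 390 against 549 CPM.

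Junction and matrix genes also divided. The claudins Cldn1, Cldn2 and Cldn3 were highest in Unknown_2, with Cldn2, which forms channels for cations, at 83.9 CPM. Cldn5, the claudin of endothelium, had 1 UMI, against 1374 CPM in Endothelium. Tjp1, a scaffold of tight junctions, was lowest of the 18 clusters at 64.2 CPM. Of 8 collagen and matrix genes, Col8a1, Col9a3, Col4a3, Col4a4 and Frem1 were highest, while Col4a1, a collagen of vessel basement membrane, had 0 UMIs.

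The 57 nuclei came from 10 of the 32 mice and mostly from 2 of them. The CAST/EiJ mouse of batch 1 gave 33 nuclei, 57.9% of the cluster and 1.73% of the 1906 annotated nuclei of that mouse (exact binomial 95% interval 1.19 to 2.42). The 129S1/SvImJ mouse of batch 4 gave 12 nuclei, 0.756% of its nuclei (0.391 to 1.32). In batch 2, nuclei came from NZO/HlLtJ (3), NOD/ShiLtJ (2), WSB/EiJ (2), A/J (1) and PWK/PhJ (1). Batch 3 gave 1 nucleus each from 129S1/SvImJ and NOD/ShiLtJ, and batch 4 gave 1 more from NOD/ShiLtJ. The other 22 mice had none, and the 4 C57BL/6 mice together had 0 of 6557 nuclei, which allows a share of up to 0.0458% (3 nuclei of the total). Intervals and such limits cover counting error only.

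No difference between strains was detected beyond the spread between mice. CAST/EiJ averaged 0.433% ± 0.866 (SD, n = 4) and 129S1/SvImJ 0.205% ± 0.368, while the other 6 strains averaged 0 to 0.0616%. In each of these 2 strains a single mouse set the mean: the other 3 CAST/EiJ mice had no nucleus, and the other 3 129S1/SvImJ mice had 1 between them. The permutation test of strain within batch gave F = 0.755 and p = 0.635, or 0.709 after Benjamini-Hochberg adjustment over the 18 clusters (log2 of the share with 0.5 nuclei added; the F statistic takes differences in either direction). Without the CAST/EiJ mouse of batch 1 the adjusted p was 0.447, and without both mice it was 0.372.

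**Figure D2:**
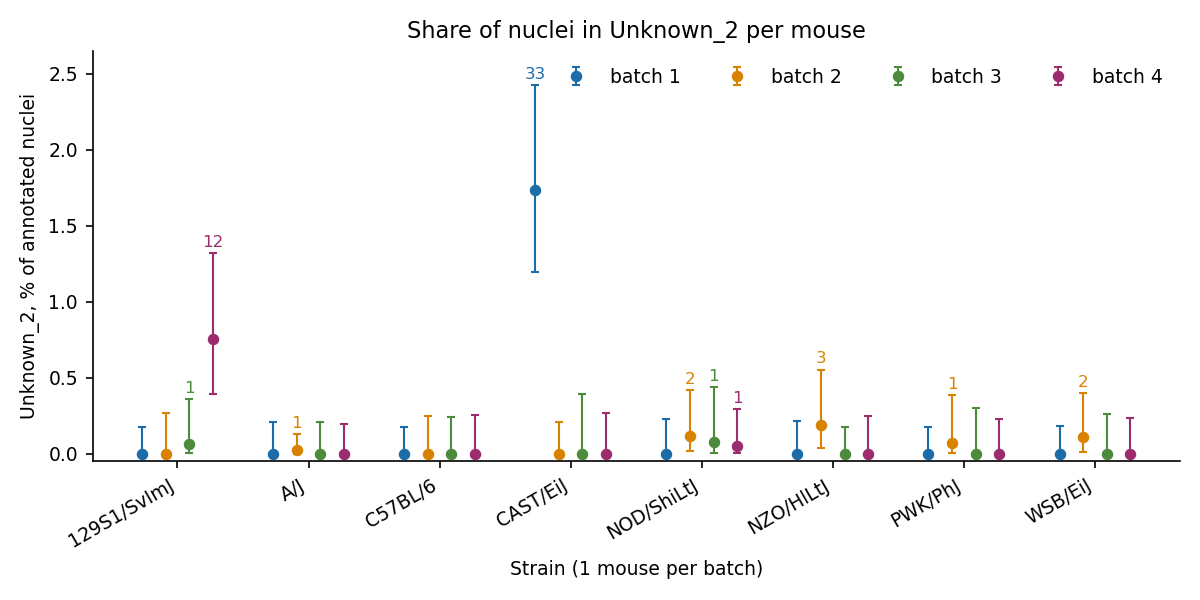
Share of annotated nuclei in Unknown_2 for each of the 32 mice by strain, with exact binomial 95% intervals, coloured by batch; numbers give the nuclei where there were any. The CAST/EiJ mouse of batch 1 stands at 1.73% and the 129S1/SvImJ mouse of batch 4 at 0.756%, above the 30 other mice.

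Ependyma, which lines the same ventricles, was found in more of the mice. Its share over the 32 mice ran from 0 to 2.53%, with a median of 0.424%. The CAST/EiJ mouse of batch 1 had 0.997%, rank 5, and the 129S1/SvImJ mouse of batch 4 had 0.504%, rank 12. The part of the dissection in these shares was not tested. Within the batches, the median share of Ependyma was 0.566%, 0.484%, 0.227% and 0.385% for batches 1 to 4, and that of Unknown_2 over all nuclei of the batch was 0.215%, 0.0576%, 0.0169% and 0.101%.

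The choroid profile sat in most but not all of the nuclei. All 45 nuclei of the 2 mice held UMIs of Ttr, Htr2c and Trpm3. A UMI of Htr2c was also found in 71.9% and of Trpm3 in 51.0% of Drd1+ neurons. Ttr made up 0.519% to 23.8% of the UMIs of a nucleus among the 45, with a median of 2.77%. In the CAST/EiJ mouse a nucleus held 11 to 1077 Ttr UMIs (median 69), 1 to 103 of Htr2c (median 34) and 14 to 136 of Trpm3 (median 60). In the 129S1/SvImJ mouse these were 58 to 402 (median 168.5), 22 to 97 (median 56.5) and 43 to 133 (median 85.5). The ranges overlapped. Of the 45 nuclei, 42 held under 10 UMIs of the projection neuron list.

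Of the 12 nuclei of the other 8 mice, 2 held all 3 of these genes. The NOD/ShiLtJ nucleus of batch 4 had 247 Ttr, 37 Htr2c and 71 Trpm3 UMIs. An NZO/HlLtJ nucleus of batch 2 had 46, 39 and 38. Both lay inside the ranges of the CAST/EiJ mouse.

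The 2 nuclei of batch 3 joined Ttr with neuron genes. The 129S1/SvImJ nucleus held 686 Ttr UMIs, no Htr2c and 7 Trpm3, beside 54 UMIs of the projection neuron list. The NOD/ShiLtJ nucleus held 197 Ttr UMIs, 3 Htr2c and no Trpm3, beside 55 UMIs of that list. Tac1, the substance P precursor of direct pathway neurons, had 14 and 9 UMIs in them. Batch 3 was also the one whose profile was nearest to Drd2+ and Drd1+ neurons (r = 0.58 for both), while in batches 1, 2 and 4 it was nearest to Astrocyte, then Ependyma.

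Of the 9 nuclei of batch 2, 7 held no Ttr. A WSB/EiJ nucleus instead held 80 UMIs of the 8 pineal and photoreceptor genes: 35 of the cone channel subunit Cngb3, 19 of Mpp4, 9 of arrestin Sag, and 7 each of Tph1, which starts serotonin synthesis, and Gnb3. It also held 61 UMIs of Otx2os1 and 3 of Crx, a homeodomain factor related to Otx2, but none of Aanat or Asmt, the melatonin enzymes. The pineal list, made after values were seen, summed to 26.9 CPM in the CAST/EiJ nuclei and 39.2 CPM in the 129S1/SvImJ nuclei, against 3437 CPM over batch 2. No other nucleus of batch 2 held more than 1 UMI of it. The value of the batch is thus that of 1 nucleus, and the contrast is a description.

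The PWK/PhJ nucleus held 79 UMIs of Apoe, 10 of the astrocyte water channel Aqp4 and 8 of Gfap, beside 6 of Ttr and 2 of Folr1. A NOD/ShiLtJ nucleus held 11 UMIs of the transporter Slc47a1 and 5 of Eya2, and the second WSB/EiJ nucleus held 2 and 6. The remaining nuclei of batch 2 without Ttr were those of A/J, the second of NOD/ShiLtJ and 2 of NZO/HlLtJ, with 0 to 1 of the 6 choroid markers detected. The choroid list summed to 2976 CPM in batch 2, against 33585 CPM in the CAST/EiJ nuclei and 50064 CPM in the 129S1/SvImJ nuclei of batch 4.

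**Figure D3:**
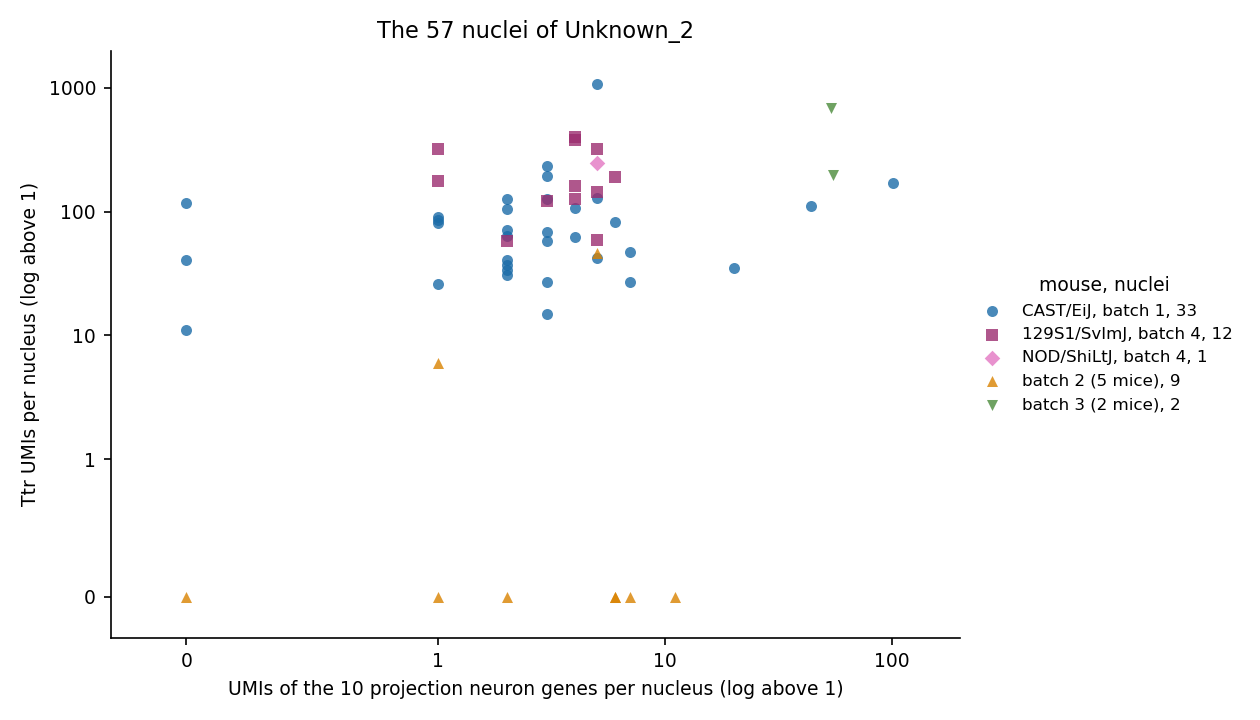
Ttr UMIs against UMIs of the 10 projection neuron genes in each of the 57 nuclei, both axes logarithmic above 1. Nuclei of the 2 main mice lie at 11 to 1077 Ttr UMIs, the 2 nuclei of batch 3 lie at right with 54 and 55 neuron UMIs, and 7 nuclei of batch 2 lie at 0 Ttr.

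The main 2 mice could be compared with each other, 1 mouse each, so that no test was possible and strain, batch and sex cannot be told apart. Of 2728 genes with at least 100 CPM in either, 71.0% were within 2-fold of each other (10 CPM added), and 8.72% differed at least 4-fold. Across these genes, which are not replicates, Spearman rho was 0.49. Ttr stood at 32027 CPM in the CAST/EiJ nuclei (exact Poisson 95% interval 30986 to 33094) and at 48279 CPM in the 129S1/SvImJ nuclei (46390 to 50225). Prlr stood at 483 CPM (363 to 631) and 1452 CPM (1140 to 1822), and Enpp2 at 5220 and 8024 CPM. Otx2os1 (2292 and 1942 CPM), Gmnc (1128 and 1000 CPM) and Col8a1 (1092 and 1099 CPM) had overlapping intervals. These intervals cover counting error only and not the spread between nuclei or mice. For Ttr that spread was wide: 1 CAST/EiJ nucleus held 1077 UMIs, against a median of 69 in the 33 nuclei. Intervals that do not overlap are therefore no sign of a difference between the 2 mice.

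The most unequal gene was Xist, the RNA that coats the inactive X chromosome, with 26.9 CPM in the CAST/EiJ nuclei and 3904 CPM in the 129S1/SvImJ nuclei. Uty, a gene of the Y chromosome, had 421 CPM and 0 UMIs. The other nuclei of these mice differed the same way (Uty 206 and 1.30 CPM). The neuron genes Kcnd2, Nlgn1, Dcc, Csmd1 and Plcb1 had 49 to 76 UMIs in the CAST/EiJ nuclei and 0 in the 129S1/SvImJ nuclei. In 3 of the 33 CAST/EiJ nuclei, those with at least 10 UMIs of the projection neuron list, lay 71 of 76 UMIs of Kcnd2 and all 52 of Dcc.

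**Figure D4:**
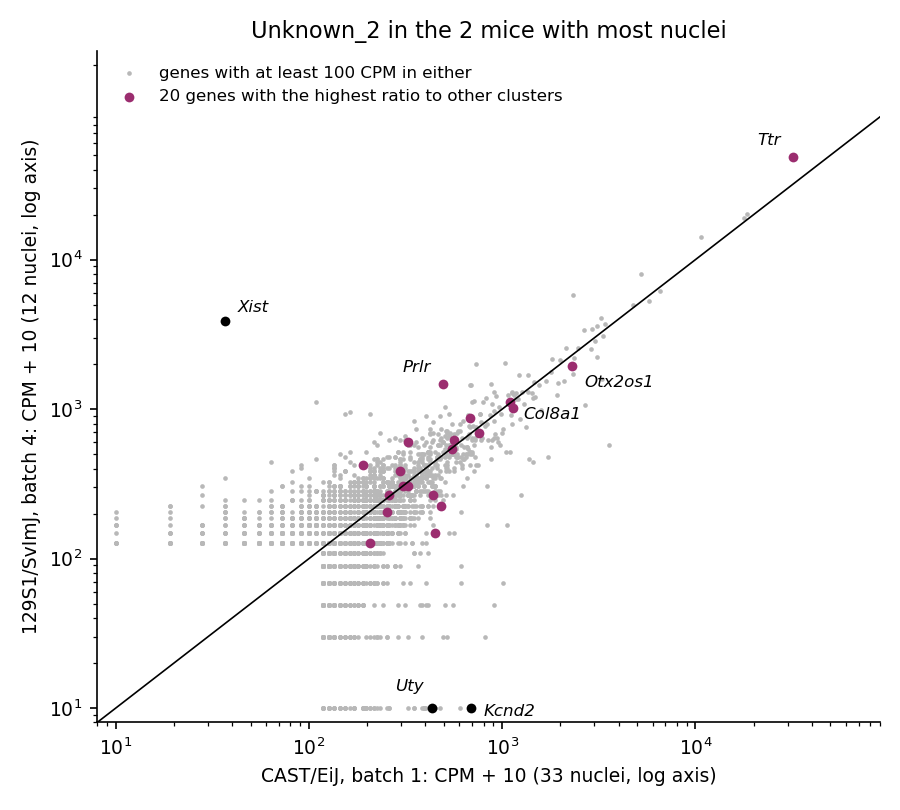
Level of 2728 genes in Unknown_2 nuclei of the 2 mice with most of them, as CPM with 10 added on log axes, with the line of equality. The 20 genes with the highest ratio to other nuclei (purple), ranked on counts mostly from these 2 mice, lie along the line, with Prlr above it. Xist, Uty and Kcnd2 (black) lie far from it.

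Few of the 10 genes that differ between strains in Drd1+ neurons, taken from an earlier analysis of these data, had enough counts in Unknown_2 to be read against the strain labels. B530045E10Rik stood in Drd1+ neurons at 195 CPM in CAST/EiJ and at 0.829 to 2.24 CPM in the 6 other strains with nuclei in the cluster. In Unknown_2 it had 28 UMIs in 18 of the 33 CAST/EiJ nuclei and none in the other 24 nuclei. Cwc22, a splicing factor gene high in WSB/EiJ, had 20 UMIs in the 2 WSB/EiJ nuclei (2771 CPM) and 10 in the 33 of CAST/EiJ (89.5 CPM). Between the 33 CAST/EiJ and 13 129S1/SvImJ nuclei, the exact Poisson 95% intervals of the other 9 genes, Cwc22 included, overlapped or both strains had no UMI, so that their order was not resolved at this depth. Dnah6, a ciliary dynein gene, had 38 and 16 UMIs, at 340 CPM (241 to 467) and 277 CPM (158 to 449), against 7.68 and 95.1 CPM in Drd1+ neurons. Ulk4 had 16 and 6 UMIs, and Catspere2 4 and 7.

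Nuclei of the cluster had a median of 3277 UMIs (904 to 12239) and 1877 genes, and ranked 10 of 18 clusters in both. Compared within the 3 mice with at least 3 such nuclei, their median UMI count was lower than that of the other nuclei of the same mouse by 0.54 ± 0.37 (SD, n = 3) on the log2 scale, and lower in 3 of 3 mice. Their mitochondrial share was higher in 3 of 3 mice, 3.28% against 2.91%. With 3 mice the exact sign-flip test cannot go below p = 0.25, which is what both gave, adjusted p = 0.333. In the 10 mice with a nucleus, the median UMI count was lower by 0.34 ± 0.80 (SD) on the log2 scale, but higher in 2, those of batch 3. The same exact test gave p = 0.209, adjusted p = 0.279. Over all 10 mice with a nucleus, which includes mice with 1 nucleus, the mitochondrial share was higher in 10 of 10 by 0.895 ± 0.862 percentage points (SD; exact p = 0.00195, two-sided and the smallest possible, adjusted p = 0.00781). The difference lay mostly in mice with 1 to 3 nuclei: in the CAST/EiJ mouse of batch 1 the shares were 3.07% and 2.78%, in the 129S1/SvImJ mouse of batch 4 2.91% and 2.89%, and over these 2 mice the difference was 0.155 percentage points. By mitochondrial share the cluster ranked 9 of 18, and Drd1+ neurons, which make up much of the other nuclei, stood at 1.44%. In the deposited ATAC index, 46 of the 57 barcodes were present (80.7%), rank 11 of 18 clusters. Barcodes of 3 nuclei also occurred as annotated nuclei of another batch, and none occurred more than once within the cluster.

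Ttr was also found outside the cluster, and its level went with the pool. A Ttr UMI was present in 87.7% of Unknown_2 nuclei and in 20.6% of Drd1+ neurons, which are not known to make it. After thinning to 1000 UMIs the shares were 87.5% and 4.02%. In batch 1, the pool with 33 nuclei of the cluster, 41.8% to 47.8% of the Drd1+ neurons of a mouse held Ttr. In batch 4, with 13 nuclei, the range was 17.2% to 26.1%, and in batches 2 and 3 it was 3.93% to 7.31% and 5.13% to 8.52%. By level the mice of a pool were spread further, from 88.6 to 257 CPM in batch 1 and from 5.29 to 22.4 CPM in batch 2. In batch 1 the highest level in Drd1+ neurons was in PWK/PhJ (257 CPM), which had no nucleus of the cluster, and CAST/EiJ stood at 107 CPM, below the median of that batch of 111 CPM. By the share of Drd1+ neurons with a Ttr UMI, CAST/EiJ was the highest of batch 1 (47.8%), and PWK/PhJ stood at 42.6%. Over all its nuclei outside the cluster CAST/EiJ also had the highest share (49.6%), and its level there, 228 CPM, was next below that of PWK/PhJ, 239 CPM. Single Drd1+ and Drd2+ nuclei held up to 481 and 489 Ttr UMIs, so that the level of a mouse can rest on few nuclei. Whether it did in PWK/PhJ was not tested.

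**Figure D5:**
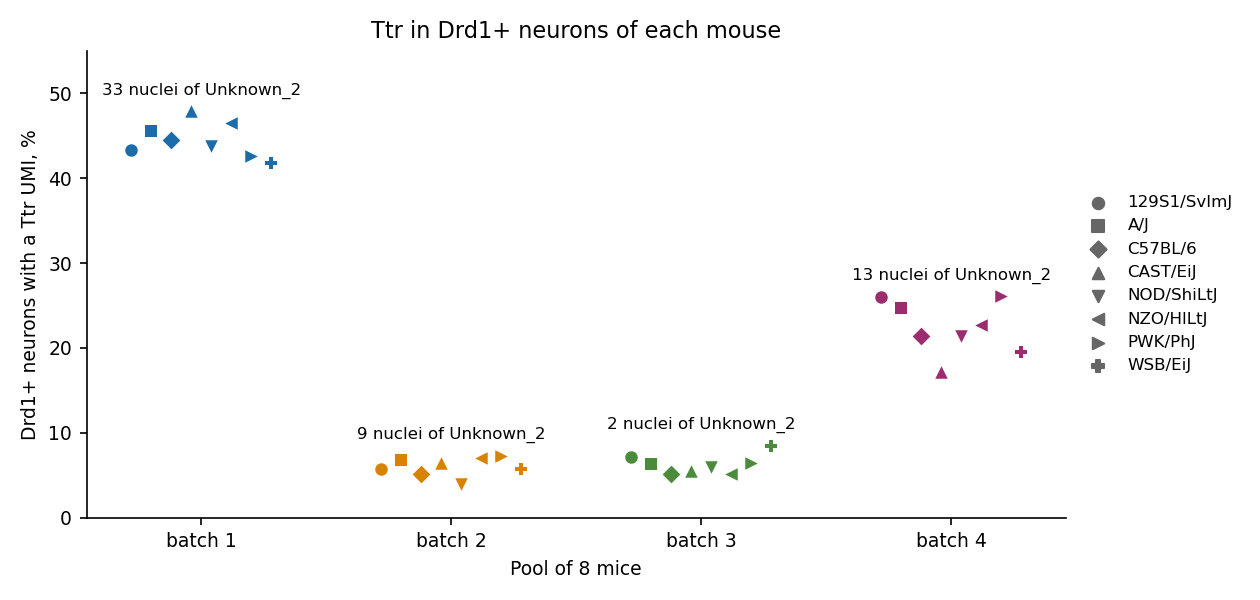
Share of Drd1+ neurons with a Ttr UMI in each of the 32 mice, grouped by pool, with the strain as the symbol. All 8 mice of batch 1 lie between 41.8% and 47.8%, those of batch 4 between 17.2% and 26.1%, and those of batches 2 and 3 at 8.52% or below.

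The choroid profile was rare elsewhere among annotated nuclei. A barcode was counted as holding it when Ttr made up at least 0.5% of its UMIs and at least 2 of the other 5 choroid markers were detected, a rule set after values were seen. It was met by 44 of the 57 nuclei (77.2%) and by 7 of the 55615 other annotated nuclei (0.0126%). The cut lies just under the lowest Ttr share in the 2 main mice, 0.519%, so the count inside the cluster is a description. Of those 7, 3 were Drd1+ neurons, 2 Drd2+ neurons, 1 a Macrophage and 1 an Oligodendrocyte. By mouse, 6 were of batch 1, with 3 of WSB/EiJ and 1 each of PWK/PhJ, C57BL/6 and CAST/EiJ, and 1 was of C57BL/6 in batch 4. Of these mice only that of CAST/EiJ had nuclei of Unknown_2. The 44 split into 29 of CAST/EiJ in batch 1, 12 of 129S1/SvImJ and 1 of NOD/ShiLtJ in batch 4, 1 of NZO/HlLtJ in batch 2 and 1 of 129S1/SvImJ in batch 3.

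No gene was tested between strains within Unknown_2. Such a test needed 2 strains with 3 mice of at least 3 nuclei each, and the 3 mice with at least 3 nuclei were of different strains. C57BL/6 is the strain that the deposited table writes as C57BL/6NJ and the design text as C57BL/6J.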

How the data were processed

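The deposited expression matrices hold raw counts, whole numbers of UMIs per gene and barcode, with no normalization by the authors. The submitters' processing notes name Cell Ranger ARC 2.0.0 and bcl2fastq 2.20.0.422 and the builds mm10 and GRCm38. Per the file descriptions deposited with the series, Demuxlet gave the authors the strain of a barcode, and they kept nuclei with 200 to 7500 genes and under 15% mitochondrial counts, removed doublets called by DoubletFinder and removed further nuclei on biological relevance. These categories, the barcode index and the peak positions (unit other) were used as deposited, and no further doublet caller was run. The annotated nuclei of batches 1 to 4 held 75120520, 77698312, 43538698 and 62604869 counts, of which 111686, 23861, 12340 and 54666 lay in Unknown_2.

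Counts were summed per cluster, batch or mouse and divided by the total (CPM). Ratios were the median of the within-batch ratios with 1 CPM added, or pooled where so stated. Named genes were the top 20 by that ratio (at least 20 CPM, a UMI in 10% of nuclei and in 8 mice), the top 10 over the highest other cluster, the 5 with most counts, the 5 lowest, the marker lists and 10 strain genes. Shares were compared by the F statistic over 100000 permutations within batch, depth by sign flips over mice, with Benjamini-Hochberg adjustment. Batch and mouse served as blocks, since the labels give batches. The ratio calculation and the share test were tried on simulated data, the outcome of which is not given here. The members and lists were chosen with earlier results of these data known. Alternatives changed the added value, the scale, the thinning, the batches and the mice. Python 3.11.15, numpy 2.4.6, scipy 1.17.1 and pandas 2.3.3 were used. The edgeR fit of strain could not be made. The value of 1 gene on the lists by role is not reported here.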

Additional observations from a re-analysis of the deposited data

Results flagged for a closer look

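Within a strain, a single mouse stood apart from the other 3 in its share of Unknown_2 in 6 of the 8 strains: 1.73% in CAST/EiJ, 0.756% in 129S1/SvImJ, 0.190% in NZO/HlLtJ, 0.111% in WSB/EiJ, 0.0696% in PWK/PhJ and 0.0226% in A/J. The gap to the nearest other mouse took up nearly the whole range of the strain in each. In the last 4 of these strains the other 3 mice had no nucleus, so that 1 to 3 nuclei set the value. Chance would single out a sample in about 1 in 20 groups of evenly spread values, which counts of 0 are not.

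The Ttr level in Drd1+ neurons of WSB/EiJ mice was 173 CPM in batch 1, far from the other 3 mice of the strain. The mouse of batch 1 had the highest level in all 8 strains.

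Among barcodes that the authors set aside as doublets or ambiguous from their strain calls, 26 of 23520 held the choroid profile (0.111%, exact binomial 95% interval 0.0722 to 0.162), and these lay outside the comparisons above. They came from batch 1 (20) and batch 4 (6), the pools with most nuclei of the cluster, and had a median of 8264.5 UMIs against 3277 in Unknown_2. Of the 20 in batch 1, 8 had CAST/EiJ and 5 had C57BL/6 as the first strain called. No share of first calls over all such barcodes stands beside these counts.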

How the results depend on the processing

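The strain test of the share stayed above the threshold under all 10 alternatives, with adjusted p from 0.372 to 0.893. It was 0.734 with no replicate block, and 0.439 to 0.877 without each batch in turn. Of the 4 depth and quality measures, only the mitochondrial share changed its call, and only over all 10 mice (0.895 percentage points). With no replicate block, the exact test of 3 values against 3 cannot go below p = 0.1, and 2 mice cannot go below 0.5, so these alternatives could not change a call.

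The count of genes at least 10-fold higher in Unknown_2, 169 by the median over batches with no requirement on mice, depended on the setting. It was 90 with 5 CPM added, 72 with nuclei thinned to 1000 UMIs, 336 with counts pooled over batches and 66 from batches 2 and 3 alone, the last 2 chosen after seeing the data. Without 1 batch it ran from 130 (batch 4) to 309 (batch 3), and it was 283 without batch 2. Of 21 single genes, 7 moved by over 1.5-fold without 1 batch: Ttr, Htr2c, Trpm3, Notch2, Slc4a10, Clic6 and Aqp1. Of the 5 lowest genes, Il1rapl2 went from -7.74 to -1.64 by the mean over mice and D430041D05Rik from -7.89 to -3.38 with pooled counts. Under other alternatives 2 reversed: the log2 ratio of Aqp1 was -0.28 after thinning, and that of Clic6 was -0.97 in batches 2 and 3 alone. The 12 UMIs of Aqp1 and the 57 nuclei limit what depth can show. The strain fit within the cluster, its edgeR and DESeq2 variants included, could not be made and its alternatives were not run.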
